A study of Mus musculus with 9 samples.

Results

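Pericytes and vascular smooth muscle cells, together called mural cells, were examined in mouse brain carrying patient-derived glioblastoma. Of 15391 barcodes that passed the cell filters in 9 samples (33998 barcodes in all), 691 were members of this class. Members were selected on measured values: a barcode held at least 200 genes and at most 30% mitochondrial UMIs (unique molecular identifiers, each standing for 1 captured transcript), UMIs of at least 3 of the genes Rgs5, Vtn, Higd1b, Kcnj8, Abcc9, Acta2, Notch3, Pdgfrb and Myl9, and UMIs of at most 1 of Cldn5, Csf1r, Slc1a2, Lum and Col1a1. Within the class, 199 members with UMIs of at least 2 of Acta2, Tagln and Myh11 are called contractile, and the rest are called the other members.

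All samples came from female athymic nude mice, which lack mature T cells. Nu-NB is the normal brain of a nude mouse. The patient-derived orthotopic xenografts (PDOXs) P3, P8, P13, T16, T101, T192 and T233 are 7 untreated glioblastoma models grown from tumor organoids implanted into the right frontal cortex and collected when the animals reached endpoint, and P3TMZ is the P3 model treated with the alkylating agent temozolomide. T192 and T233 derive from tumors of 1 patient. Cells of P8 and Nu-NB had been sorted by FACS and those of the others separated from human tumor cells by magnetic beads (MACS), and the mouse cells were profiled by Drop-seq, which counts the 3′ ends of transcripts per cell. Each sample is 1 library, with 1 normal brain and 1 temozolomide-treated sample. P3 and P3TMZ came from 1 mouse each, and for the other libraries the number of animals was not given in the sources used here, so p-values describe only the spread between these libraries.

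Pericytes lie within the basement membrane of capillaries, wrapped around the endothelial tube, and signal to endothelial cells through platelet-derived growth factor, TGF-beta, Notch and angiopoietin pathways. In the brain they take part in forming and keeping the blood-brain barrier, and they carry a set of transporters that pericytes of other organs largely lack. Smooth muscle cells surround arterioles and arteries with contractile fibers of smooth muscle actin and myosin. In tumors, mural cells are known as a source of vascular matrix and of growth factors, and their cover of the vessels is often incomplete.

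The label was checked with genes outside the rule. In the untreated PDOXs, Ndufa4l2, a mitochondrial subunit variant typical of pericytes, had a UMI in 32.7% of 636 members and in 0.258% of myeloid cells, a class that should lack it, at median depths of 982 and 962 UMIs. The corresponding shares were 24.8% and 0.352% for Cd248 (endosialin, a surface glycoprotein of perivascular cells), 23.7% and 0.540% for the endothelin receptor gene Ednra, 25.3% and 0.775% for Art3 and 18.9% and 0.681% for the adhesion molecule gene Mcam. Cspg4, which encodes NG2, separated the classes less, at 32.9% and 12.7%. The markers Des, Gja4, Tbx18, Atp13a5, Foxs1 and Anpep were found in 17.1%, 17.6%, 9.91%, 11.8%, 12.6% and 5.19% of members, each at 0.634% or less of myeloid cells. Of the genes in the rule, Rgs5, a regulator of G protein signaling, was the most often detected, in 95.9% of members, followed by Vtn (vitronectin) in 76.9% and Myl9 (myosin regulatory light chain) in 59.0%. These shares describe the choice of members.

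Many members also carried transcripts of other cell types. At least 2 markers of endothelial, myeloid, astrocyte or fibroblast cells were present in 25.0% (P8) to 81.3% (P13) of members in the untreated PDOXs and in 28.6% in Nu-NB. A barcode was therefore also scored for which marker set led it. In 533 members the 9 rule genes held more UMIs than each of 4 sets of 9 markers for endothelial, myeloid, astrocyte and fibroblast cells, and these are called mural-led. Of the 144 untreated PDOX members that were not mural-led, 74 were led by myeloid and 51 by endothelial markers, 13 by astrocyte markers and none by fibroblast markers, and 6 were tied. No doublets were removed, and how many of these barcodes held more than 1 cell was not tested.

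The members that were not mural-led were deep. Their median was 4055 UMIs in T233 against 391 in mural-led members, and 2272 against 482 in T192. Mural-led members held 95.9% of member UMIs in P8, 83.0% in P13, 65.1% in Nu-NB and 60.7% in T101, but 35.9% in T16, 35.4% in P3TMZ, 15.3% in T192, 10.9% in P3 and 4.89% in T233. A single barcode held 33.2% of all member UMIs in T192. The main results over all members are therefore given with the level in mural-led members beside them, and T233 with 9 mural-led members was left out of the latter.

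Further limits were shared by the whole series. Total UMIs per library ran from 1294068 to 8410580 in the untreated PDOXs and were 1519323 in Nu-NB. Nu-NB contributed 14 members with 8075 UMIs, so that 1 UMI there was 128 CPM (a gene's UMIs scaled to the total of the summed members) and a count of 0 allows up to 385 CPM (3 UMIs), against 1.62 to 48.6 CPM per UMI in the PDOXs. CPM was computed over the 12580 gene symbols listed in every file, since Nu-NB and P8 used an older symbol release. The sort and the symbol release set Nu-NB and P8 apart from the other libraries in the same way and cannot be told apart. No member barcode was shared between samples.

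By the rule as given, mural cells were a larger share of kept cells in every PDOX than in normal brain. They were 0.749% (14 of 1868, exact binomial 95% interval 0.410 to 1.25) in Nu-NB. In the untreated PDOXs the shares were 1.90% in T101 (30 members, 1.29 to 2.70), 2.46% in T233 (24, 1.59 to 3.64), 3.46% in T192 (66, 2.69 to 4.39), 3.67% in P3 (30, 2.49 to 5.19), 4.90% in P8 (120, 4.08 to 5.84), 5.93% in T16 (126, 4.96 to 7.02) and 8.23% in P13 (240, 7.26 to 9.29). The lowest PDOX interval, in T101, did not reach that of Nu-NB, and intervals cover counting error only. With 7 PDOXs against 1 brain an exact permutation test cannot go below p = 0.125, so no test was made. Mural-led members alone were 0.589% of kept cells in Nu-NB (0.294 to 1.05) and 0.924% (T233, 0.423 to 1.75) to 6.89% (P13) in the PDOXs, and the intervals of T233, P3 and T101 overlapped that of Nu-NB. With each barcode thinned to 500 UMIs before the rule was applied, T233 at 0.482% (3 of 623) lay below Nu-NB at 0.672% (7 of 1041), and the other 6 PDOXs lay above it.

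The share depends on which other cells were recovered, and endothelial cells gave another scale. There were 0.412 members per endothelial cell in Nu-NB (34 endothelial cells), where endothelial cells were 1.82% of kept cells against 5.88% to 21.0% in the untreated PDOXs. The ratio was 0.134 in T101, 0.178 in P3, 0.214 in T233, 0.281 in T192, 0.283 in T16, 0.463 in P13 and 0.833 in P8. It was below the value of normal brain in 5 PDOXs and above it in P13 and P8, and P8 shared the FACS sort with Nu-NB. With at least 500 genes per barcode it was 0.571 in Nu-NB (4 members to 7 endothelial cells) and 0.471 in P13, so that P13 then lay below normal brain as well. Counted with mural-led members, the ratio was 0.324 in Nu-NB, 0.0769 (P3) to 0.193 (T16) in the 5 lower PDOXs, 0.388 in P13 and 0.819 in P8. The order between brain and tumor was thus not the same on the 2 scales.

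**Figure D1:**
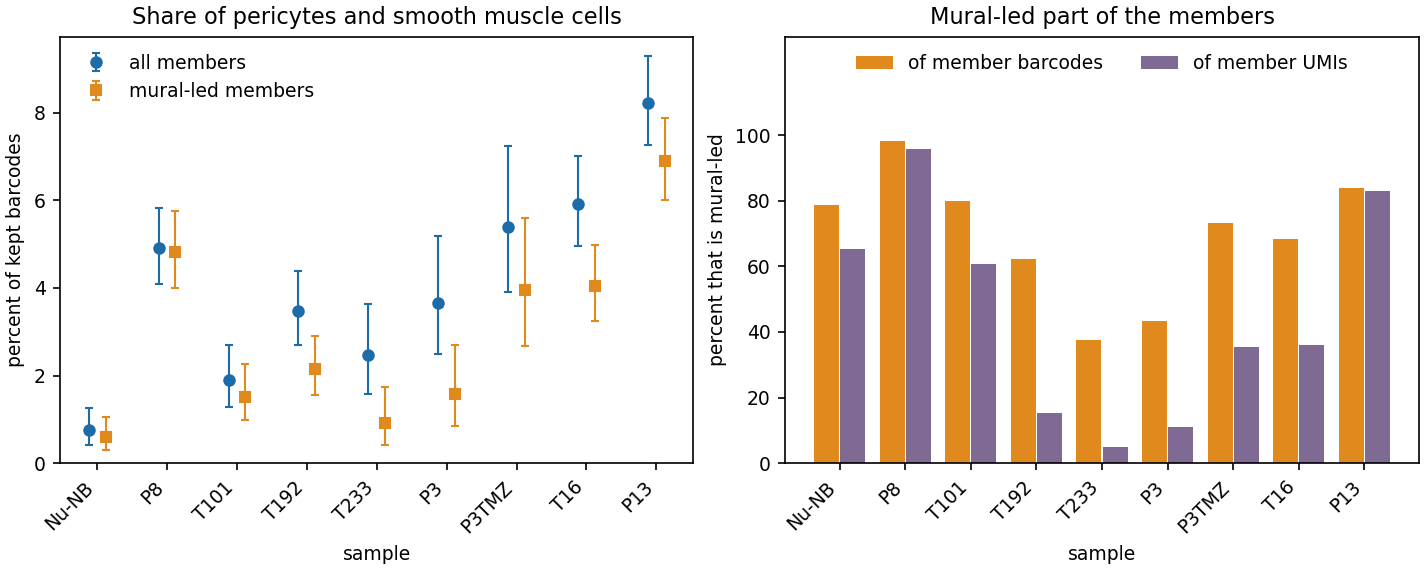
Left, members and mural-led members as a percent of kept barcodes in each of the 9 samples, with exact 95% binomial intervals. Right, bars for the percent of member barcodes and of member UMIs that was mural-led; the UMI bars of T192, T233 and P3 (15.3, 4.89 and 10.9%) stand far below their barcode bars.

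The rule's limit of 3 markers passed near many barcodes. Members with just 3 markers numbered 9 of 14 in Nu-NB, 36 in P8, 19 in T101, 28 in T192, 11 in T233, 9 in P3, 23 in P3TMZ, 55 in T16 and 45 in P13. Just outside, with 2 markers, lay 6 barcodes in Nu-NB, 25 in P8, 34 in T101, 32 in T192, 13 in T233, 27 in P3, 20 in P3TMZ, 76 in T16 and 76 in P13. A further 112 barcodes in P13 and 41 in T16 had enough mural markers but 2 of the exclusion genes. Members with 6 or more markers were most numerous in P13, followed by P8 (21), and none was found in Nu-NB.

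The pericyte genes of the rule varied widely between samples over all members, and Rgs5 varied less among mural-led members. Mural-led members were chosen by the summed UMIs of the rule genes, so levels of these genes there were not independent of the choice. Rgs5 stood at 9359 CPM in Nu-NB against a PDOX median of 6464, the lowest being 1101 in T233 and the highest 14130 in P8 (with P13 next, at 12858). In mural-led members it was 12341 CPM in Nu-NB, while PDOX values lay between 9669.9 (T192) and 14954 (P13) around a median of 13208. P3, P8 and P13 then stood close together. The median over the untreated PDOXs was 301 CPM in endothelial, 54.7 in myeloid and 54.5 in astrocyte cells, a difference that the selection made.

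Vtn, the gene of the adhesive matrix protein vitronectin, kept a wide range in mural-led members. Over all members it was 6410.3 CPM in Nu-NB and from 716 (T233) to 6671 (P8) CPM in the PDOXs, with a median of 1456. In mural-led members it was 7835 CPM in Nu-NB against a PDOX median of 5018, the lowest being 1093 in P13 and the highest 7903 in T192. P13 stood lowest among mural-led members, below the next PDOX, T16 at 3335 CPM. P13 was therefore high in Rgs5 and low in Vtn.

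The subunits of the pericyte ATP-sensitive potassium channel, Kcnj8 (pore) and Abcc9 (sulfonylurea receptor), were read less often. In mural-led members Kcnj8 was 1175 CPM in Nu-NB, while PDOX values lay between 431 (P13) and 1767 (T192) around a median of 917, and Abcc9 was 1371 CPM in Nu-NB and from 232 (T192) to 778 (P8) CPM in the PDOXs, with a median of 403. Nu-NB lay above every PDOX for Abcc9 and within the range of the PDOXs for Kcnj8. Higd1b, of the hypoxia-inducible domain family, was 1175 CPM in Nu-NB against a PDOX median of 1283, the lowest being 479 in P13 and the highest 4008 in P3, with P3 far above the other PDOXs. The receptors Pdgfrb and Notch3, which receive endothelial PDGF-B and Notch ligands, were low everywhere: Pdgfrb over all members was 128 CPM in Nu-NB, while PDOX values lay between 79.6 (T233) and 580.1 (P8) around a median of 186, and Notch3 was 0 CPM in Nu-NB and from 48.6 (T101) to 311 (P8) CPM in the PDOXs, with a median of 59.1.

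**Figure D2:**
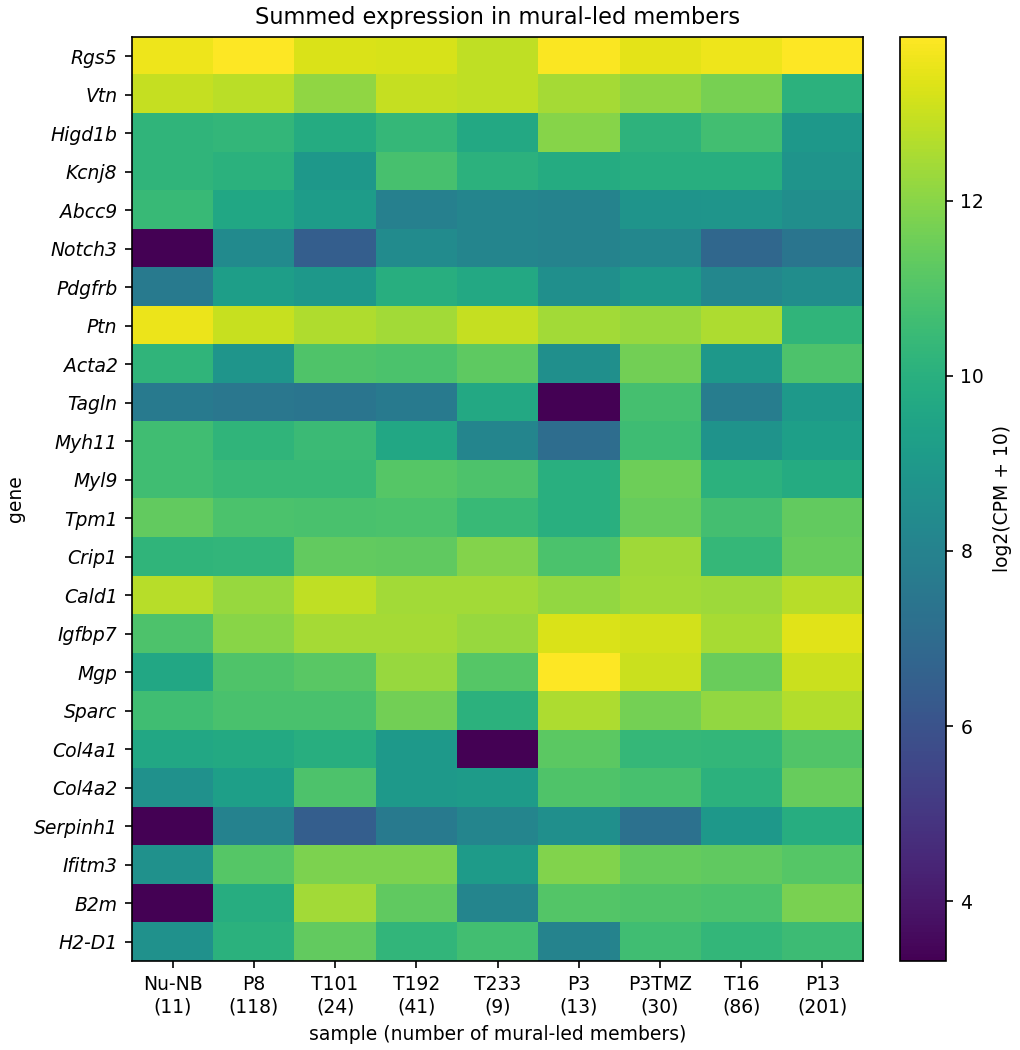
Heat map of 24 genes (rows) by sample (columns) in mural-led members, colored by log2(CPM + 10). T233, with 9 mural-led members, is drawn but left out of the following. Rgs5 is high in every column, Vtn is lowest in P13 (1093 CPM), and the Mgp and Igfbp7 rows are darkest in Nu-NB (784 and 1959 CPM).

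The untreated PDOXs were compared with normal brain across all genes, the comparison that asks how brain mural cells differ from those of the tumor environment. UMIs were summed over members in each sample and 4566 genes were tested with edgeR's quasi-likelihood test and Benjamini-Hochberg adjustment. None passed an adjusted p of 0.01 with a 2-fold change (0.0% of genes tested), and the smallest adjusted p was 0.22. At an unadjusted p under 0.05, 690 genes (15.1%) were higher and 28 (0.613%) lower in PDOXs. DESeq2 called none at the same limits and had 277 genes at an unadjusted p under 0.05 (194 higher, 83 lower). In mural-led members 887 genes could be tested and none was called by edgeR or DESeq2, with 89 (10%) higher and 41 (4.62%) lower at an unadjusted p under 0.05 in edgeR, and with 21 higher and 80 lower in DESeq2.

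The log2 fold changes (log2FC, PDOX over Nu-NB) carried a shift of the whole scale. Their median over all genes was 1.09 and 67.9% of genes were above 0 with the TMM scaling used and -0.17 with library totals, under which 126 genes were higher and 216 lower at an unadjusted p under 0.05. Each log2FC below is to be read against 1.09, and genes at 0 UMIs in Nu-NB have a value that the model's prior sets. Such genes were 1621 of the 4566 (35.5%) and 234 of the 887 in mural-led members (26.4%). They passed the filter on low counts through the PDOXs alone, so that their direction was fixed by the filter, and their number is given beside the lists that hold many. Levels are therefore given first. In summed UMIs, fewer cells of a subtype and less RNA of a gene per cell cannot be told apart.

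Brain pericyte transporters gave an order of normal brain and PDOXs that depended on the genes in the sum. Over all members the list of 15 genes summed to 3718 CPM in Nu-NB and between 778 (P3) and 4175 (P8) CPM across the PDOXs, so that P8 was above Nu-NB and the other 6 PDOXs were below it. In mural-led members the sum was 4897 CPM in Nu-NB and between 1503 (P3) and 4370.1 (T192) CPM across the PDOXs, with Nu-NB above all 6 PDOXs. The list holds Kcnj8 and Abcc9, which took part in choosing the members. Without them the 13 other genes summed to 1923 CPM in Nu-NB and 461 (P3) to 2414 (P8) CPM in the PDOXs over all members, and to 2351 CPM in Nu-NB and 376 (P3) to 2410 (P8) CPM in mural-led members, where P8 and T192 were above Nu-NB. The list does not hold Atp13a5, a P-type ATPase gene found mainly in brain pericytes and listed with the pericyte genes. With it, in a sum chosen after the values were seen, the 14 genes reached 3462 CPM in Nu-NB and 488 (P3) to 2932 (P8) CPM in the PDOXs over all members, and 4505 CPM in Nu-NB and 501 (P3) to 2950 (P8) CPM in mural-led members, so that Nu-NB lay above every PDOX on both readings. Of 11 genes tested, none passed, none had an unadjusted p under 0.05, 7 had a log2FC above 0 and 4 below, and the median was 0.45 against 1.09 for all genes. The mural-led median of 6 genes was -0.02 against 0.83.

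Kcnj8 and Abcc9, described above, made up much of the sum. Abcc9 over all members was 897 CPM in Nu-NB against a PDOX median of 311, the lowest being 26.5 in T233 and the highest 746 in P8, with 7 UMIs in Nu-NB, and normal brain was above all 7 PDOXs there as it was above all 6 in mural-led ones (log2FC -0.30 ± 1.30 (SE), unadjusted p = 0.82, adjusted p = 0.93, edgeR over all members). Atp1b2, an ATPase beta subunit gene, was 641 CPM in Nu-NB, while PDOX values lay between 85.7 (T192) and 414 (P8) around a median of 159. In mural-led members Atp1b2 was 588 CPM in Nu-NB and from 125 (P3) to 465 (T192) CPM in the PDOXs, with a median of 309, again with Nu-NB above the PDOXs. The organic anion transporter gene Slc22a8 was 385 CPM in Nu-NB against a PDOX median of 79.6, the lowest being 22.6 in P13 and the highest 228 in P8, which in Nu-NB was 3 UMIs. Atp13a5 had 12 UMIs in Nu-NB over all members and 11 in mural-led ones, and reached 2155 CPM in mural-led members of Nu-NB, 540.3 in P8 and at most 232 in the other PDOXs. The monocarboxylate transporter Slc16a12 was 128 CPM in Nu-NB, while PDOX values lay between 26.5 (T233) and 497 (P8) around a median of 118, which in Nu-NB was 1 UMI.

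Basement membrane genes lay on the other side for most PDOXs. The list summed to 4615 CPM in Nu-NB and between 2853 (T233) and 13422 (P13) CPM across the PDOXs over all members, and to 5093 CPM in Nu-NB and between 5684 (P8) and 15061 (P13) CPM across the PDOXs in mural-led members, where all 6 PDOXs were above Nu-NB. Of 13 genes tested, 3 of them at 0 UMIs in Nu-NB, none passed, 1 was higher at an unadjusted p under 0.05 (against 15.1% of all genes), 11 had a log2FC above 0 (against 67.9%), and the median was 2.11 against 1.09 for all genes. Sparc, a collagen-binding glycoprotein, was 1154 CPM in Nu-NB and from 1865 (P8) to 5966 (P13) CPM in the PDOXs, with a median of 4112, with Nu-NB below all 7 PDOXs (log2FC 3.25 ± 1.11 (SE), unadjusted p = 0.0121, adjusted p = 0.24, edgeR). In mural-led members Sparc was 1567 CPM in Nu-NB against a PDOX median of 3823, the lowest being 1815 in P8 and the highest 6501 in P13, and endothelial cells, which use it strongly, led 51 of the PDOX members.

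Of the collagen IV chains, Col4a1 did not separate the groups and Col4a2 tended to be higher. In mural-led members Col4a1 was 784 CPM in Nu-NB, while PDOX values lay between 511 (T192) and 2379.8 (P3) around a median of 1108, and Col4a2 was 392 CPM in Nu-NB and from 511 (T192) to 2704 (P13) CPM in the PDOXs, with a median of 1498. Col4a2 was above Nu-NB in each of the 6 PDOXs with mural-led levels, while Col4a1 was above it in 5. In both, P13 and P3 were the highest, and over all members the Col4a2 fit gave log2FC 3.01 ± 2.05 (SE), unadjusted p = 0.17, adjusted p = 0.46 (edgeR). The laminin chain Lama4 was 256 CPM in Nu-NB against a PDOX median of 344, the lowest being 0 in T233 and the highest 583 in T101. The collagen chaperone Serpinh1 was 128 CPM in Nu-NB, while PDOX values lay between 48.6 (T101) and 816 (P13) around a median of 198, with P13 standing above the rest.

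Interstitial matrix genes were uneven among tumors. Their sum was 4615 CPM in Nu-NB and between 1486 (T233) and 12543 (P13) CPM across the PDOXs over all members and 5681 CPM in Nu-NB and between 5835 (P8) and 20165 (P3) CPM across the PDOXs in mural-led ones. None of 13 genes passed and 2 were higher at an unadjusted p under 0.05, against 15.1% of all genes. The median of 5.72 included 7 genes at 0 UMIs in Nu-NB. In mural-led members 2 of 8 were higher at that level, against 10% of all genes, and 3 were at 0 UMIs in Nu-NB, with a median of 2.14 against 0.83.

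Mgp, matrix Gla protein, an inhibitor of calcification and of bone morphogenetic proteins, made up much of this list. Over all members it was 641 CPM in Nu-NB and from 411 (T233) to 7181 (P13) CPM in the PDOXs, with a median of 1507, with 5 UMIs in Nu-NB (log2FC 3.29 ± 1.56 (SE), unadjusted p = 0.0563, adjusted p = 0.32, edgeR). In mural-led members it was 784 CPM in Nu-NB against a PDOX median of 3838, the lowest being 1999 in P8 and the highest 14779.6 in P3, and Nu-NB was below all 6. P3 and P13 were far above the other PDOXs. The median over the untreated PDOXs was 175 CPM in endothelial cells and 3838 in mural-led members. Aspn, a small leucine-rich proteoglycan gene, did not follow, at 641 CPM in Nu-NB, while PDOX values lay between 146 (T233) and 1108 (P8) around a median of 725. Timp3, an inhibitor of metalloproteinases, was 1923 CPM in Nu-NB and from 157 (T192) to 694 (P8) CPM in the PDOXs, with a median of 295, so that Nu-NB lay above every PDOX with 15 UMIs (log2FC -0.95 ± 0.72 (SE), unadjusted p = 0.213, adjusted p = 0.51, edgeR). Fibronectin, Fn1, was not seen in Nu-NB and was 197 (P8) to 435 (P3) CPM in the PDOXs, partly within the 385 CPM that 0 UMIs allow.

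The secreted vascular growth factor list held genes that went both ways. It summed to 14487 CPM in Nu-NB and between 3980.3 (T233) and 15011 (P8) CPM across the PDOXs. The mural-led sum was 17826 CPM in Nu-NB and between 14071 (T16) and 16408 (P3) CPM across the PDOXs, with Nu-NB above every PDOX by a small margin. Of 18 genes tested, 8 were at 0 UMIs in Nu-NB, and the median log2FC was 2.75 against 1.09 for all genes. In mural-led members the median over 8 genes was -0.07 against 0.83 for all genes.

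Igfbp7, a secreted binder of insulin-like growth factors made by vascular cells, and Ptn, the heparin-binding factor pleiotrophin, were the most abundant of these. Igfbp7 was 1410.3 CPM in Nu-NB against a PDOX median of 3548, the lowest being 716 in T233 and the highest 9161 in P13, from 11 UMIs in Nu-NB (log2FC 2.80 ± 1.30 (SE), unadjusted p = 0.0519, adjusted p = 0.32, edgeR). In mural-led members Igfbp7 was 1959 CPM in Nu-NB, while PDOX values lay between 4030.4 (P8) and 10705 (P13) around a median of 5686. All 6 PDOXs were above Nu-NB in mural-led members, and P13 and P3 stood highest. Ptn showed the other order, at 9872 CPM in Nu-NB and from 677 (T233) to 7842 (P8) CPM in the PDOXs, with a median of 1384 (log2FC -0.41 ± 1.01 SE, edgeR). In mural-led members Ptn was 11949 CPM in Nu-NB against a PDOX median of 5699, the lowest being 1173 in P13 and the highest 8082 in P8. Nu-NB was above every PDOX on both readings, and P13 was the lowest mural-led value. Endothelial cells also hold Igfbp7, with a median of 3346 CPM over the PDOXs against 5686 in mural-led members.

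**Figure D3:**
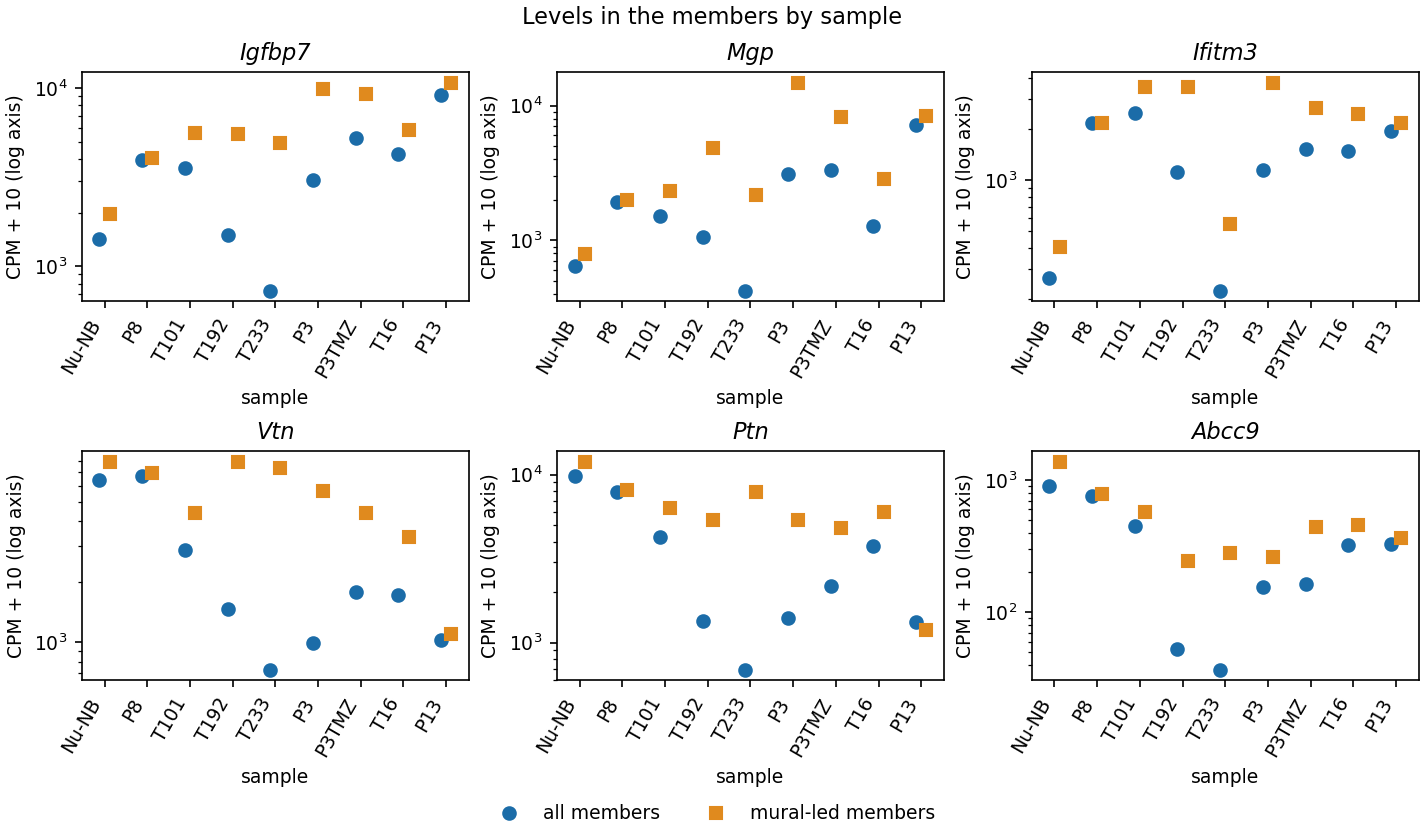
CPM + 10 on a log axis for Igfbp7, Mgp, Ifitm3, Vtn, Ptn and Abcc9 in each sample, with 1 symbol for all members and 1 for mural-led members. For mural-led members, leaving out T233, which is drawn from 9 barcodes, Nu-NB lies at the bottom of the Igfbp7, Mgp and Ifitm3 panels. It lies at the top of the Ptn and Abcc9 panels.

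The summed level of the interferon and MHC class I genes was above normal brain in every PDOX. Some single genes were not, such as Ifitm3 over all members and H2-D1 in mural-led ones. The list summed to 1923 CPM in Nu-NB and between 7718 (P8) and 22987 (T101) CPM across the PDOXs over all members and to 2742 CPM in Nu-NB and between 7142 (P8) and 19442 (T101) CPM across the PDOXs in mural-led members. The sums of the groups did not overlap on either reading. Of 19 genes tested, none passed, 8 were higher and none lower at an unadjusted p under 0.05 (against 15.1% and 0.613% of all genes), and the median was 4.47. In mural-led members 4 of 13 were higher, against 10% of all genes, with a median of 6.79. Both medians include genes at 0 UMIs in Nu-NB, 8 of the 19 and 7 of the 13.

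B2m, the common light chain of MHC class I, had no UMI in the 14 Nu-NB members, which allows up to 385 CPM. It was 1264 (P8) to 8602 (T192) CPM over all PDOX members and 929 (P8) to 5440.4 (T101) in mural-led ones. The same order was seen beyond mural cells: over all kept barcodes B2m was 829 CPM in Nu-NB against 2092 to 7001 in PDOXs, and in endothelial cells 2146 against 2302 to 8139. The heavy chain gene H2-D1 was 256 CPM in Nu-NB, while PDOX values lay between 1181 (P8) and 3936 (T101) around a median of 1911, from 2 UMIs in Nu-NB (log2FC 4.47 ± 1.14 (SE), unadjusted p = 0.00193, adjusted p = 0.22, edgeR). In mural-led members H2-D1 was 392 CPM in Nu-NB and from 251 (P3) to 2560.2 (T101) CPM in the PDOXs, with a median of 1225, and P3 lay below Nu-NB. H2-K1 was 128 CPM in Nu-NB against a PDOX median of 1088, the lowest being 238 in P8 and the highest 2770.1 in T101, with 1 UMI in Nu-NB.

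The interferon-induced membrane protein gene Ifitm3 was 256 CPM in Nu-NB, while PDOX values lay between 212 (T233) and 2478 (T101) around a median of 1477, with 2 UMIs in Nu-NB (log2FC 3.90 ± 1.30 (SE), unadjusted p = 0.0109, adjusted p = 0.24, edgeR). In mural-led members it was 392 CPM in Nu-NB and from 2162 (P13) to 3758 (P3) CPM in the PDOXs, with a median of 2994, all above Nu-NB. Ly6e, another interferon-responsive gene, had no UMI in Nu-NB and was 82.9 (P8) to 1361 (T101) CPM in the PDOXs. P8, the other FACS-sorted library, had the lowest list sum of the PDOXs, so the sort, the symbol release and the tumor could each move with this order, and their parts were not tested.

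Signaling genes were sparse. The 7 Notch genes tested, the rule gene Notch3 among them, had a median log2FC of 0.19, below the shift of all genes, with 4 above 0 and 3 below and none at an unadjusted p under 0.05. Hes1, a Notch target, was 641 CPM in Nu-NB against a PDOX median of 249.8, the lowest being 146 in T233 and the highest 483 in T16, and Heyl, a target typical of mural cells, was 385 CPM in Nu-NB, while PDOX values lay between 0 (T233) and 146 (T101) around a median of 59.1, so that Nu-NB was above every PDOX for both. In mural-led members the 2 Notch genes tested had a median of -1.02. Of 11 TGF-beta and BMP genes, 7 were at 0 UMIs in Nu-NB and 2 were higher at an unadjusted p under 0.05 (against 15.1% of all genes), with a median of 6.70, and the sum was 897 CPM in Nu-NB and between 875 (T101) and 2306 (T192) CPM across the PDOXs. Id3, a BMP target, had no UMI in Nu-NB and was 133 (T233) to 888 (P13) CPM in the PDOXs.

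Of 11 chemokine and NF-kB genes tested, 7 were at 0 UMIs in Nu-NB and 1 was higher at an unadjusted p under 0.05, against 15.1% of all genes (median 6.46). A log2FC above 0 can go with a lower CPM, as for Cxcl12, because of the shift of the scale. The list summed to 641 CPM in Nu-NB and between 1149.9 (P8) and 3655 (T192) CPM across the PDOXs, and to 588 CPM in Nu-NB and between 1091 (P8) and 3487 (T192) CPM across the PDOXs in mural-led members. Nfkbia, the inhibitor that NF-kB induces, was 128 CPM in Nu-NB and from 146 (T101) to 1313 (T192) CPM in the PDOXs, with a median of 526, from 1 UMI in Nu-NB. Ccl2, a monocyte attractant, had no UMI in Nu-NB and reached 283 CPM in P13, which is within what 0 UMIs allow. Cxcl12, a ligand of the receptor Cxcr4, was 256 CPM in Nu-NB against a PDOX median of 186, the lowest being 39.5 in P3 and the highest 671 in T192.

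Hypoxia and glycolysis genes had a sum just above every PDOX in Nu-NB, at 3333 CPM in Nu-NB and between 2089.7 (T101) and 3253 (P8) CPM across the PDOXs. The list holds Higd1b, a gene of the rule. Without it the sum was 2308 CPM in Nu-NB and 1507 (T101) to 2477 (T192) CPM in the PDOXs, so that Nu-NB lay within their range. Of 13 tested, 3 were higher at an unadjusted p under 0.05 (against 15.1% of all genes), 9 had a log2FC above 0 (against 67.9%) and the median was 2.36 against 1.09 for all genes. Aldoa, the glycolytic aldolase, was 128 CPM in Nu-NB, while PDOX values lay between 274 (T16) and 592 (T192) around a median of 340.2, from 1 UMI in Nu-NB, and Ldha, lactate dehydrogenase A, was 128 CPM in Nu-NB and from 146 (T101) to 345 (T233) CPM in the PDOXs, with a median of 249. In mural-led members, however, the sum was 2547 CPM in Nu-NB and between 2480.2 (T101) and 6638 (P3) CPM across the PDOXs, with T101 and P13 just below Nu-NB. Without Higd1b the mural-led sum was 1371 CPM in Nu-NB and 1600.1 (T101) to 2929 (T192) CPM in the PDOXs, so that all 6 were above it.

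Immediate early genes, which respond to cell dissociation as well as to growth signals, were higher in 6 of 16 genes at an unadjusted p under 0.05, against 15.1% of all genes, with 10 of the 16 at 0 UMIs in Nu-NB (median 6.29). The sum was 2051 CPM in Nu-NB and between 1626 (P8) and 10515 (T192) CPM across the PDOXs. The transcription factor gene Jun was 385 CPM in Nu-NB against a PDOX median of 923, the lowest being 394 in P8 and the highest 1581 in P3, and Fos was 128 CPM in Nu-NB, while PDOX values lay between 176 (P8) and 792 (T192) around a median of 438. The mural-led sum was 2351 CPM in Nu-NB and between 1567 (P8) and 4974 (T192) CPM across the PDOXs, and none of 5 genes reached an unadjusted p under 0.05, with a median of 1.14 against 0.83 for all genes.

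The pericyte and contractile lists themselves stayed near the shift of the scale. The 20 pericyte genes had a median log2FC of 0.89, 16 above 0, with none at an unadjusted p under 0.05. Their sum was 22308 CPM in Nu-NB and between 2786 (T233) and 29472 (P8) CPM across the PDOXs over all members and 28404 CPM in Nu-NB and between 20322 (T101) and 30590.2 (P8) CPM across the PDOXs in mural-led ones, where 1 of 13 genes was higher and 1 lower at that level. The 22 contractile genes tested had a median of 1.03, with 2 higher at an unadjusted p under 0.05 against 15.1% of all genes, and a sum of 14487 CPM in Nu-NB and between 5957 (T233) and 18309 (P13) CPM across the PDOXs. Crip1, a LIM domain protein gene of smooth muscle, was 769 CPM in Nu-NB and from 698 (T16) to 2408 (P13) CPM in the PDOXs, with a median of 1041 (log2FC 2.12 ± 0.89 (SE), unadjusted p = 0.0345, adjusted p = 0.3, edgeR). These lists overlap the rule and describe the members.

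Markers of myeloid cells and astrocytes differed between the same groups in their summed levels over all members. The sum of 14 myeloid markers was 769 CPM in Nu-NB and between 1439.9 (P8) and 35942 (T192) CPM across the PDOXs over all members, with 6 higher at an unadjusted p under 0.05 (against 15.1% of all genes), 11 at 0 UMIs in Nu-NB and a median log2FC of 9.67, and 392 CPM in Nu-NB and between 640.1 (T101) and 3859 (T192) CPM across the PDOXs in mural-led members, with none of 3 at that level. Ctss, a cathepsin of microglia and macrophages, was 513 CPM in Nu-NB against a PDOX median of 4714, the lowest being 342 in P8 and the highest 9529.7 in T192. Endothelial markers summed to 3333 CPM in Nu-NB and between 1885 (P8) and 7566 (T16) CPM across the PDOXs, with Nu-NB within the range of the PDOXs, 2 of 12 higher at an unadjusted p under 0.05 against 15.1% of all genes, and 5 at 0 UMIs in Nu-NB (median 2.40), and to 2742 CPM in Nu-NB and between 1459 (P8) and 5099 (T16) CPM across the PDOXs in mural-led members. The 9 astrocyte markers tested all had a log2FC below 0 (median -2.45), whereas 67.9% of all genes were above 0. Their sum was 8462 CPM in Nu-NB and between 119 (P3) and 1848 (P13) CPM across the PDOXs. In mural-led members that sum was 588 CPM in Nu-NB and between 251 (P3) and 1214 (P13) CPM across the PDOXs. These lists hold Csf1r, Cldn5 and Slc1a2, exclusion genes that took part in choosing the members. Without Slc1a2 the astrocyte sum over all members was 5385 CPM in Nu-NB and 119 (P3) to 1215 (P13) CPM in the PDOXs. Without Cldn5 the endothelial sum was 3333 CPM in Nu-NB and 1761 (P8) to 6235 (T16) CPM in the PDOXs. The part of these cells' RNA in each result over all members was not tested beyond the mural-led values given.

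Choroid plexus RNA was present in all libraries and abundant in some. Its markers summed to 897 CPM in Nu-NB and between 963 (P8) and 54543 (T233) CPM across the PDOXs, nearly all of it Ttr, the transthyretin gene, with 53760 CPM in T233, 34146 in P3 and 26201 in T16. In mural-led members Ttr was 392 CPM in Nu-NB, while PDOX values lay between 160 (T101) and 3212 (P13) around a median of 671. The 5 choroid plexus and ependymal, 7 fibroblast, 3 oligodendrocyte lineage, 2 erythrocyte, 1 neuronal and 1 lymphocyte markers tested had median log2FC of 5.77, 2.58, 5.18, 6.71, 8.29 and 6.24. In the same order, 3, 3, 2, 2, 1 and 1 of them were at 0 UMIs in Nu-NB, so that their direction was fixed by the filter. Fibroblast markers summed to 1667 CPM in Nu-NB and between 249.8 (T192) and 2072 (P8) CPM across the PDOXs, which does not separate the groups. In mural-led members 2 of the 4 fibroblast markers and the 1 neuronal marker tested were at 0 UMIs in Nu-NB, so that their direction was fixed by the filter there too.

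Among genes on 1 side of Nu-NB in all 7 PDOXs, the 10 higher genes with the smallest p had 1 UMI or none in Nu-NB. B2m was among them. The others were Arpc2, of the actin-nucleating Arp2/3 complex (128 CPM in Nu-NB and from 787 (P8) to 1652 (T101) CPM in the PDOXs, with a median of 1353, with 1 UMI in Nu-NB), Msn (moesin, which ties actin to the membrane), Psmb6 (a proteasome subunit), the nuclear-encoded respiratory complex genes Atp5j2, Ndufb10, Ndufa12 and Uqcr11, and the ribosomal protein genes Rplp2 and Rpl6. Except for Arpc2, these had no UMI in Nu-NB members, and edgeR's adjusted p was 0.22 for all of them. Over all kept barcodes Msn stood at 216 CPM in Nu-NB against 282 to 512 in PDOXs, Rplp2 at 267 against 317 to 733 and Ndufa12 at 234 against 98.7 to 219.

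Of the 10 genes lower in PDOXs by the same rule, 5 were astrocyte genes: Kcnj16, Fut9, Aqp4, Slc1a3 and Ttyh1. The 10 had from 5 (Tbcel) to 19 (Ttyh1) UMIs in Nu-NB. Aqp4, the astrocyte water channel, had 897 CPM in Nu-NB members and 13.2 to 146 in PDOX members. In the mural-led Nu-NB members Kcnj16, Fut9 and Aqp4 had no UMI, and Slc1a3 and Ttyh1 had 196 CPM each, against 1795 and 2436 over all Nu-NB members. The 5 other genes still had 392 (Tbcel) to 1567 (Uimc1) CPM there. Syne1, the nuclear envelope protein nesprin, was 1795 CPM in Nu-NB against a PDOX median of 166, the lowest being 106 in T233 and the highest 535 in T101 (log2FC -1.73 ± 0.60 (SE), unadjusted p = 0.0131, adjusted p = 0.24, edgeR), with 1371 CPM in mural-led Nu-NB members. Nu-NB was also above every PDOX over all kept barcodes, with 820 CPM against 53.3 to 258, and in endothelial cells, with 767 against 37.3 to 276. In myeloid cells it was not, at 169.8 CPM in Nu-NB against 23.4 to 195 in PDOXs, where T16 and P13 were above it. Uimc1, a DNA repair adaptor, was 1282 CPM in Nu-NB, while PDOX values lay between 87.2 (P13) and 207 (P8) around a median of 114, with 1567 in the mural-led ones. Over all kept barcodes Uimc1 was 165 CPM in Nu-NB against 65.6 to 121 in PDOXs, and in endothelial cells 51.1 against 66.3 to 119.7, where Nu-NB was lowest, whereas in myeloid cells it was 212 against 65.4 to 137. Plekha2, 2810474O19Rik and Tbcel were the remaining members of this group.

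The tumors also differed among themselves. Over all members the genes with the largest SD of log2(CPM + 10) across the 7 PDOXs were Ttr, 1500015O10Rik and Enpp2 (choroid plexus), and Cxcl13, Ccl6, H2-Ab1, H2-Aa, Laptm5, Fcer1g and Rgs2, most of them genes of immune cells. The MHC class II gene H2-Ab1 stood at 2819 CPM in T101 members, where the next PDOX, T233, had 464. In mural-led members the corresponding genes were Ftl1, Bsg, Top2a, Dmd, Rrbp1, S100a6, Rps27l, Nfkbia, Ly6c1 and Ebf1. S100a6, a calcium-binding protein gene, was 1241 CPM in mural-led members of P13 and 86.4 in P8.

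P13 was distinct by several matrix genes. Over all members it had the highest Mgp, Igfbp7, Col4a1, Col4a2, Serpinh1 and Col3a1 of the 7 PDOXs, with Col3a1, a fibrillar collagen, at 812 CPM against 642 in P8, the next. It also had the deepest members, with a median of 2121.5 UMIs against 560.5 to 1099.5 in the other PDOXs. At least 2 fibroblast markers were present in 106 of its 240 members. They were present in 8 of 30 in P3, 23 of 126 in T16, 17 of 120 in P8 and at most 4 members in each other PDOX. Col3a1 is also on the fibroblast list, and the part of fibroblast RNA was not tested. P8 had the highest Rgs5, Vtn, Ptn, Kcnj8 and Abcc9 of the PDOXs over all members. In mural-led members that held for Ptn and Abcc9 but not for Vtn and Kcnj8, where T192 was higher, nor for Rgs5, where P13 was.

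Contractile members were 199 of 691. They were 1 of 14 (7.14%) in Nu-NB, 7.50% in P8 (3.49 to 13.8), 13.5% in T16 (8.06 to 20.7), 20% in T101 (7.71 to 38.6), 25.8% in T192 (15.8 to 38), 30% in P3 (14.7 to 49.4), 45.8% in T233 (25.6 to 67.2) and 46.7% in P13 (40.2 to 53.2). The split needs UMIs of 2 genes, and contractile members were deeper than the others in 6 of the 7 PDOXs. With each barcode thinned to 500 UMIs, which left 547 members, the share was 5.88% in P8, 6.25% in T233, 8% in T16, 15.4% in P3, 16.3% in T192, 19.6% in P13 and 25.0% in T101, with a median of 15.4% against 25.8% unthinned. In Nu-NB 1 of 7 thinned members was contractile. Of mural-led members, 0 of 13 in P3 and 48.3% in P13 were contractile before thinning.

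The promoters of contractile genes were searched for the CArG box, the 10-base element bound by serum response factor, which drives smooth muscle genes. Among RefSeq promoters of GRCm38.p6, from 250 bases before to 50 after the start, 3 of 20 contractile genes found there held a box on either strand (15.0%), against 0 of 15 pericyte genes (0.0%) and 488 of 27025 genes (1.81%). The boxes are shown because these are the contractile genes whose promoter held one: Myl9 (chr2:156775258-156775357, + strand, box 161 to 152 bases before the start), Myl6, a myosin light chain gene (chr10:128493010-128493104, - strand, box 50 to 41 before), and Vcl, the vinculin gene (chr14:20929148-20929225, + strand, box 227 to 218 before). Capitals mark the box, and a match is a description of these letters only.
Myl9: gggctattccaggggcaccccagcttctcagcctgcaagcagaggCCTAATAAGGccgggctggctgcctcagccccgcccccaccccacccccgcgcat
Myl6: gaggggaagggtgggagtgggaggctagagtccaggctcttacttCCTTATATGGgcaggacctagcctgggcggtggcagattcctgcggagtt
Vcl: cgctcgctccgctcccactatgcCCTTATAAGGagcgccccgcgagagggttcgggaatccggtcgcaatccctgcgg

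Contractile and other members were compared in the 5 samples with at least 10 of each (T192, T233, P3TMZ, T16 and P13), as a description with no test, since the cells were divided by these values. Of 2297 genes compared, 100 (4.35%) were higher and 226 (9.84%) lower in the contractile members of every sample, many on few UMIs, with a median log2 ratio of -0.09. Among mural-led members, compared in P3TMZ, T16 and P13, 338 of 2507 genes (13.5%) were higher and 473 (18.9%) lower. Over all members in those same 3 samples the shares were 12.5% (288) and 20.4% (470) of 2304 genes.

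Of 16 contractile genes outside the rule and the split, 3 were higher in every sample and none lower over all members (median log2 ratio 1.07), and 14 of 18 were higher and none lower in mural-led members (2.25). The 3 genes of the split differed as chosen: Acta2, smooth muscle actin, was 1236, 745, 3149, 1552 and 2700.3 CPM in contractile members against 246, 604, 37.3, 44.7 and 464 CPM in the others (in the order T192, T233, P3TMZ, T16 and P13), with median log2 ratios of 5.94 for Tagln and 4.79 for Myh11. Pln, phospholamban, which controls the calcium pump of the sarcoplasmic reticulum, was 178, 134, 409, 371 and 125 CPM in contractile members against 0, 0, 0, 0 and 10.9 CPM in the others. Sncg, gamma-synuclein, was 251, 224, 629.8, 371 and 178 CPM in contractile members against 112, 0, 0, 12.8 and 39.9 CPM in the others, and Map3k7cl was 62.9, 74.5, 504, 270 and 216 CPM in contractile members against 0, 0, 37.3, 25.5 and 127 CPM in the others. All 3 were higher in the contractile members of every sample compared. The tropomyosin gene Tpm1 had a median log2 ratio of 1.53 over all members and 2.26 in mural-led ones, and Crip1 1.08 and 2.90. Cald1, caldesmon, which both pericytes and muscle cells use, had 0.44 and 0.87.

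Among mural-led members, Pln and Sncg were again among the 12 highest, the only genes that the 2 readings shared among those. Mustn1, a small nuclear protein gene of muscle, was 1801, 1257 and 107 CPM in contractile members against 0, 0 and 36.0 CPM in the others (P3TMZ, T16 and P13). Pdlim3 and Palld, actin-binding proteins of Z-discs and stress fibers, had median log2 ratios of 4.91 and 4.35, and Hrc, a calcium-binding protein of the sarcoplasmic reticulum, 3.79. The remainder of the 12 were Prelp, Fam13b, Atp1b1, Ccnd2, Fbxl22 and Fbxo3.

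Vtn, Kcnj8 and Abcc9 were lower in contractile members. They are genes of the rule, which contractile members could meet with Acta2 and Myl9, so part of this order lies in the choice. Of the pericyte list outside the rule, 4 of 9 genes were lower in every sample and none higher over all members (median log2 ratio -1.55), against 9.84% lower and 4.35% higher of all genes, and 4 of 11 were lower and 1 higher in mural-led members (-0.24), against 18.9% and 13.5%. Vtn was 83.8, 89.4, 220.4, 641 and 618 CPM in contractile members against 4390.4, 5801, 3583, 1903 and 1519 CPM in the others over all members, and 643, 677 and 677 CPM in contractile members against 6611, 3821 and 1636 CPM in the others in mural-led members. Kcnj8 was 0, 14.9, 0, 101.2 and 256 CPM in contractile members against 918, 725, 821, 530.1 and 511 CPM in the others, with a median log2 ratio of -4.88 (-3.40 in mural-led members). Abcc9 had -2.39 and -5.76. Rgs5, in contrast, did not separate the mural-led sets. It was 7463, 12374 and 15308 CPM in contractile members against 13375, 12241 and 14492 CPM in the others there, a median log2 ratio of 0.02.

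Of genes outside the rule, Ptn was 62.9, 29.8, 157, 1924 and 687 CPM in contractile members against 4054, 5922, 4554, 4100 and 2106 CPM in the others, and Ifitm1, an interferon-induced membrane protein gene, was 10.5, 14.9, 0, 67.5 and 93.2 CPM in contractile members against 1075, 483, 1530.4, 377 and 236 CPM in the others. Both were lower in contractile members in each of the 5 samples, with mural-led median log2 ratios of -1.97 and -2.79. Il34, a ligand of the Csf1 receptor, Col4a2 and Cxcl12 had -3.71, -3.64 and -3.21 over all members and -0.51, -1.28 and 0.03 in mural-led ones, so Cxcl12 did not keep its order. Mgp and Igfbp7 had -2.28 and -1.78 over all members but 0.09 and -0.54 in mural-led ones.

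Myeloid RNA moved with the split over all members. Ctss was 11849.8, 7377, 9573, 979 and 1014 CPM in contractile members against 4569.6, 483, 1493, 1233 and 848 CPM in the others, higher in contractile members in most samples, and the antigen presentation gene Cd74 had a median log2 ratio of 1.77. In mural-led members the medians were -1.26 and 0.00. Contractile members were deeper, with median UMIs of 2831 against 614 in T192, 4798 against 593 in T233 and 2724 against 1619.5 in P13.

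**Figure D4:**
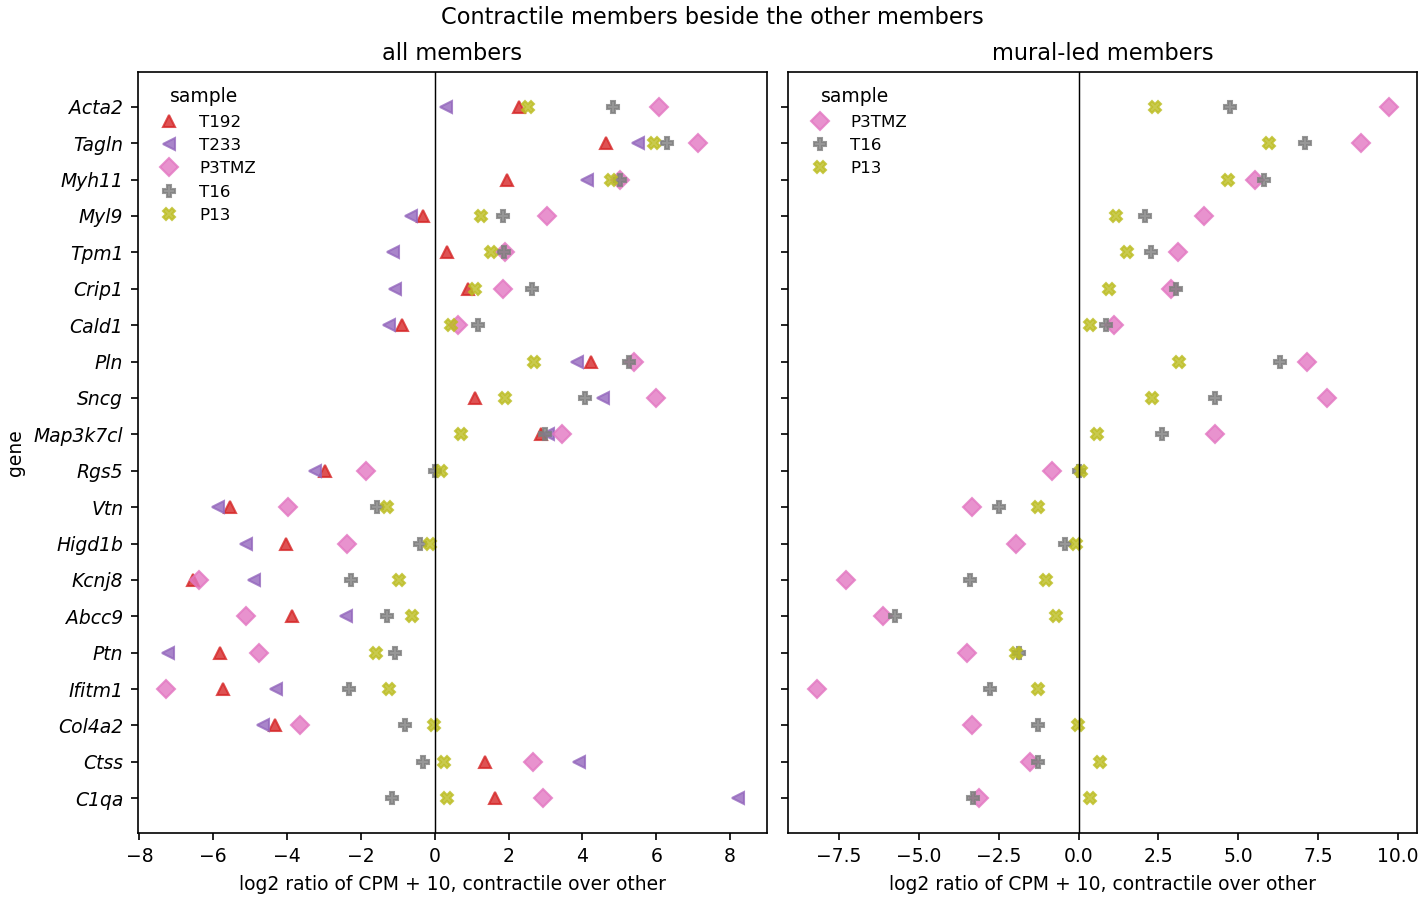
Log2 ratio of CPM + 10 in contractile over other members for 20 genes, 1 point per sample (5 samples for all members at left, 3 for mural-led members at right), with a line at 0. Tagln, Myh11, Pln and Sncg points lie to the right and Vtn, Kcnj8 and Ptn points to the left in both panels.

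Some mural cells were cycling. A member was counted as cycling with UMIs of at least 2 of 30 cell cycle genes after thinning to 500 UMIs. None of 7 was in Nu-NB (interval up to 41.0%) and none of 16 in T233 (up to 20.6%). The share was 5.88% in P8 (4 of 68), 6.25% in T101 (1 of 16), 6.98% in T192 (3 of 43), 11.5% in P3 (3 of 26), 14% in T16 (14 of 100, 7.87 to 22.4) and 20.8% in P13 (50 of 240, exact 95% interval 15.9 to 26.5). Unthinned shares ran from 3.33% (P8) to 47.1% (P13). P13 stood highest both ways.

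Pooled over the untreated PDOXs, 75 of 509 thinned members were cycling (14.7%, 11.8 to 18.1), against 127 of 1372 endothelial cells (9.26%, 7.78 to 10.9). These counting intervals did not overlap, but intervals of pooled cells leave out the spread between tumors and give no test of a difference. By sample, members had the higher share in 5 of 7 PDOXs, by as little as 5.88% against 5.45% in P8, and the lower share in T192 (6.98% against 7.46%) and T233 (0% against 1.39%). P13 supplied 240 of the 509 members and 517 of the 1372 endothelial cells, and so weighed more among the members. Without P13 the shares were 9.29% (6.10 to 13.4) and 6.20% (4.68 to 8.03), with overlapping intervals. Contractile and other members had 16.2% (10.9 to 22.6) and 14% (10.5 to 18.2) cycling, which overlap. P13 held most of the cycling contractile members, and within it the shares were 20.5% (23 of 112) in contractile and 21.1% (27 of 128) in other members. Without P13 the order of the pooled shares turned, at 7.27% (4 of 55, 2.02 to 17.6) in contractile and 9.81% (21 of 214, 6.18 to 14.6) in other members. In mural-led members 63 of 368 were cycling (17.1%, 13.4 to 21.4), and 17 of 167 without P13 (10.2%, 6.04 to 15.8). By the split, mural-led contractile members had 19% cycling (22 of 116, 12.3 to 27.3) and mural-led other members 16.3% (41 of 252, 11.9 to 21.4), and without P13 5.26% (1 of 19, 0.133 to 26.0) and 10.8% (16 of 148, 6.31 to 17.0), with overlapping intervals in each case. Levels of the cell cycle genes gave another reading. In mural-led contractile members 11 of 18 genes were lower in all of P3TMZ, T16 and P13 and none higher (median log2 ratio -2.42), against 18.9% lower of all genes, and over all members none of 10 was lower or higher in every sample compared (-0.59).

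In summed UMIs all 19 cell cycle genes tested had a log2FC above 0 (median 6.60). None of them had a UMI in Nu-NB, so that their direction was fixed by the filter on low counts. Their sum was 0 CPM in Nu-NB, which allows up to 385, and 292 (T101) to 5104 (P13) CPM in the PDOXs. Top2a, a topoisomerase of dividing cells, was 42.8 (T192) to 541 (P13) CPM, and Mki67, the gene of the proliferation antigen Ki-67, 0 (T101) to 368 (P13).

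**Figure D5:**
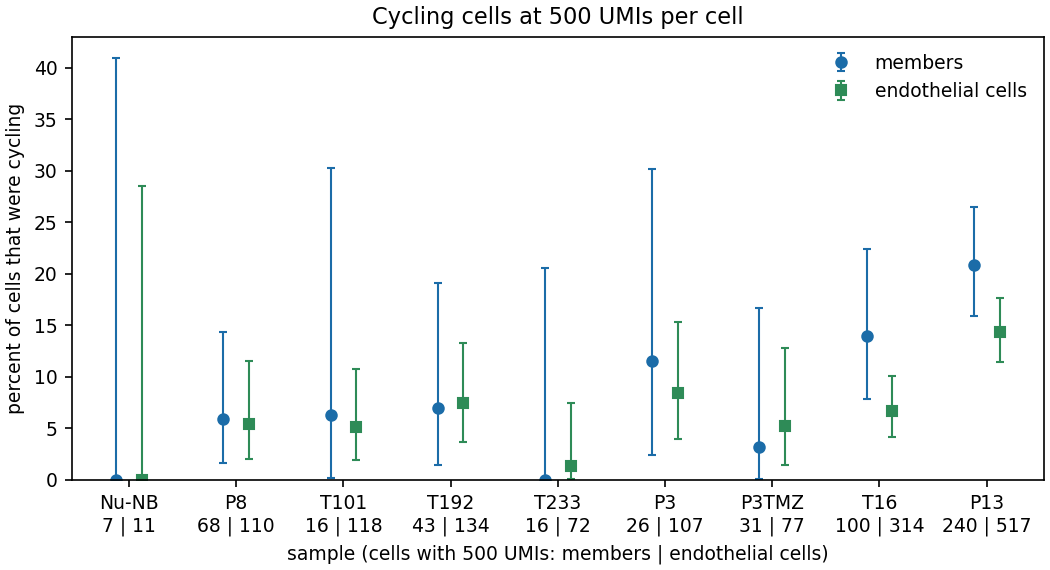
Percent of barcodes cycling at 500 UMIs in members and in endothelial cells of each sample, with exact 95% intervals. P13 is highest in both (20.8% and 14.3%), and the member intervals of Nu-NB, T101, T233 and P3 are wide.

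Temozolomide was compared with no drug in 1 pair, P3TMZ and P3, so the values have no replicate check and describe these libraries. Members were 5.39% of kept cells in P3TMZ (41, 3.90 to 7.25) and 3.67% in P3 (30, 2.49 to 5.19), with overlapping intervals. The difference of 1.73 percentage points (-0.41 to 3.92) turned to -2.60 (-6.64 to 1.11) with at least 500 genes per barcode and to -0.27 (-1.58 to 1.04) with at least 4 markers and no exclusion marker, and was 2.36 (0.670 to 4.16) in mural-led members. Contractile members were 17 of 41 (41.5%) and 9 of 30 (30%), and after thinning 35.5% and 15.4%. Mural-led members were contractile in 12 of 30 (40.0%, 22.7 to 59.4) in P3TMZ and 0 of 13 in P3, which allows up to 24.7%. Cycling shares at 500 UMIs were 3.23% (1 of 31) and 11.5% (3 of 26).

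Counts were compared with exact intervals of the ratio that cover counting error only, not the spread between cells or between animals. They take each UMI as independent, although the largest barcode alone held 27.5% of member UMIs in P3 and 13.9% in P3TMZ. Of 1003 genes with at least 200 CPM in either sample, 127 (12.7%) were higher and 104 (10.4%) lower in P3TMZ with an interval that left out 1. In mural-led members these were 27 (1.8%) and 87 (5.79%) of 1503 genes. The median ratio of these genes was 1.04 over all members and 0.64 in mural-led members, where 200 CPM was passed with 2 UMIs in P3 and 5 in P3TMZ. Over the 12580 genes common to all samples, P3 had 7984 mural-led UMIs against 20781 in P3TMZ.

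Of 16 contractile genes with at least 200 CPM, 13 had an interval above 1 over all members and none below, and in mural-led members 9 of 18 were above and 1, Vcl, below. Outside the rule and the split these were 9 of 12 over all members, and 5 above and 1 below of 14 in mural-led members, against 1.8% above and 5.79% below for all genes there. Acta2 stood at 1725 CPM in P3TMZ and 619 in P3, a ratio of 2.79 (1.95 to 4.03), and had in mural-led members 65 UMIs in P3TMZ and 3 in P3, a ratio of CPM of 8.32 (2.73 to 41.4). Myh11, smooth muscle myosin heavy chain, had 49 UMIs in P3TMZ and 27 in P3, a ratio of CPM of 2.35 (1.44 to 3.91) and, in mural-led members, 32 UMIs in P3TMZ and 1 in P3, a ratio of CPM of 12.3 (2.05 to 501). Tagln, transgelin, had 44 UMIs in P3TMZ and 9 in P3, a ratio of CPM of 6.34 (3.05 to 14.8), and 36 against 0 UMIs in mural-led members. Ratios in mural-led members were 2.98 (1.42 to 7.20) for Myl9, 2.82 (1.64 to 5.20) for Crip1 and 2.69 (1.28 to 6.53) for Tpm1, while Cald1 at 1.20 (0.815 to 1.79) did not leave out 1. The share of contractile cells among the mural-led members moved with these ratios.

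Of 14 pericyte genes in mural-led members none had an interval above 1 and 3, Rgs5, Higd1b and Cd248, had one below. The shares of all genes there were 1.8% above and 5.79% below. Rgs5 and Higd1b took part in choosing the members, and outside the rule 1 of 7 genes, Cd248, had an interval below 1. Rgs5 had a ratio of 1.58 (1.33 to 1.88) over all members and 0.789 (0.627 to 0.997) in mural-led members, and Vtn 1.80 (1.33 to 2.47) and 0.777 (0.538 to 1.14), so that Rgs5 lay on the other side of 1 in the mural-led members and the Vtn interval there included 1. Higd1b was 0.276 (0.154 to 0.487) in mural-led members. Against the median ratio of 0.64 there, Rgs5 and Vtn lay above it with intervals that included it, and the interval of Higd1b lay below it. Of 9 basement membrane and 8 interstitial matrix genes in mural-led members, 1 (Sparc) and 2 (Mgp and Aspn) had an interval below 1, against 5.79% of all genes, and Timp3 had one above. Mgp was 0.560 (0.440 to 0.714) and Sparc 0.544 (0.371 to 0.805), both with intervals that included 0.64, whereas Mgp over all members was 1.07 (0.878 to 1.29). Igfbp7 was 1.73 (1.45 to 2.06) over all members and 0.929 (0.711 to 1.22) in mural-led ones.

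The largest ratios over all members belonged mainly to genes of other cells. Ttr had 12 UMIs in P3TMZ and 2591 in P3, a ratio of CPM of 0.00600 (0.00310 to 0.0105), and Enpp2, a choroid plexus gene of lysophospholipid metabolism, 6 UMIs in P3TMZ and 166 in P3, a ratio of CPM of 0.0468 (0.0169 to 0.104). In mural-led members Ttr was 0.494 (0.164 to 1.56). Scgb3a1, a secretoglobin gene, had 102 UMIs in P3TMZ and 12 in P3, a ratio of CPM of 11.0 (6.04 to 22.0), and Slco1a4 and Abcb1a, transporters of the brain endothelium, 7.78 (2.67 to 30.8) and 8.42 (1.91 to 76.9). The chemokine gene Ccl4 had 14 UMIs in P3TMZ and 171 in P3, a ratio of CPM of 0.106 (0.0568 to 0.183). Map3k7cl, higher in contractile members of every sample compared, had 17 UMIs in P3TMZ and 1 in P3, a ratio of CPM of 22.0 (3.45 to 921). The remaining genes named by the rule were Rnaset2b, Gkn3, U2af1 and Rbpms, higher in P3TMZ, and Ccl5, 1500015O10Rik, Igfbp2, Igf2 and Tmem160, lower.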

How the data were processed

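Mouse cells of 9 brain samples were profiled by Drop-seq. The deposited files hold raw UMI counts per gene and barcode, 1 file per sample. According to the submitters' processing notes and the study's methods, the authors demultiplexed reads with bcl2fastq 2.0 and mapped them with STAR to the human and the mouse genome (mm10, GRCm38). The STAR version, annotation release and counting options are not given in the sources used here. Mouse barcodes had been separated from human ones before deposit, and the counts were not normalized.

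From these counts, barcodes were kept that held at least 200 genes and no more than 30% mitochondrial UMIs, and members were taken by the rule stated in the results. No doublet caller was run. Genes were matched by symbol: 12580 were listed in every file and 33274 in at least 1, because Nu-NB and P8 used an older release, and Col1a1 was not listed in T101. UMIs were summed over the members of a sample and scaled to CPM over the 12580 genes. Untreated PDOXs (n = 7) were compared with Nu-NB (n = 1) by edgeR 4.0.16 (quasi-likelihood, TMM, filterByExpr, robust; R 4.3.3), with Benjamini-Hochberg adjustment over all genes tested and calls at an adjusted p of at most 0.01 with a log2FC of at least 1 in size. With 1 brain the spread is that between PDOXs. DESeq2 1.42.0 was an alternative. The edgeR procedure was tested on simulated data: with 200 of 4566 genes changed and the fitted dispersion of 0.286, it recovered 0% at 4-fold, 1.5% at 8-fold and 37% at 32-fold, with 0 false calls, so that only very large differences could have passed here. Other contrasts are descriptions, with exact (Clopper-Pearson) 95% intervals for shares and exact conditional intervals for ratios of UMIs, which cover counting error only. Cycling and contractile shares were also taken after thinning each barcode to 500 UMIs (scipy 1.17.1, numpy 2.4.6, pandas 2.3.3).

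The members and the gene lists were chosen with earlier results of these data known. Mural-led members were defined after seeing that deep barcodes held more UMIs of other markers. Named genes were the rule genes; up to 5 genes per list with the highest mean level in PDOXs; up to 10 per direction with the smallest p, a mean of at least 100 CPM and all PDOXs on 1 side of Nu-NB; up to 12 per direction with the largest median log2 ratio for contractile members and up to 8 with the largest ratio for P3TMZ; and the 10 most variable genes over PDOXs. Where a list gene is named beyond these, it was chosen after its values were seen. Promoters came from the RefSeq table of GRCm38.p6. Tagln and Myh11 promoters were not used here. A gene of the brain pericyte transporter list is not reported here, and the list was counted and summed without it.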

Additional observations from a re-analysis of the deposited data

Results flagged for a closer look

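Among 96 values tested over the untreated PDOXs (list sums and 35 single genes, over all or mural-led members), 14 had 1 PDOX whose gap to the next was larger than Dixon's 95% limit. Chance flags about 1 group in 20.

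P13 was set apart by matrix genes over all members. Its interstitial matrix genes summed to 12543 CPM (next P8 5739), Igfbp7 was 9161 CPM (next T16 4269), Mgp 7181 CPM (next P3 3123), Serpinh1 816 CPM (next T16 338) and the fibrillar collagen gene Col1a2 736 CPM (next P3 277). P13 also had the deepest members, and 106 of its 240 members held at least 2 fibroblast markers, with Col1a2 itself on the fibroblast list. In mural-led members Mgp was higher in P3 than in P13. The parts of depth and of fibroblast RNA were not tested.

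P8 was set apart by pericyte genes over all members: Vtn was 6671 CPM (next T101 2867), Kcnj8 1015 CPM (next T16 462), Notch3 311 CPM (next P13 157) and Atp13a5 518 CPM (next T16 85.9), and the brain pericyte transporters summed to 4175 CPM (next T101 2138). Vtn, Kcnj8 and Notch3 are genes of the rule and Kcnj8 and Abcc9 are part of the transporter sum, so these values also took part in choosing the members. Mural-led barcodes held 95.9% of member UMIs in P8, the highest share of all samples, and in mural-led members Vtn and Kcnj8 were higher in T192 than in P8.

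T192 stood apart by chemokine and NF-kB genes, which summed to 3655 CPM (next P3 1779), and by Cxcl12 in mural-led members, at 1859.6 CPM (next T16 568). T16 stood apart by endothelial markers, which summed to 7566 CPM (next T101 3207), with 22 of its 126 members led by endothelial markers. That list holds Cldn5, an exclusion gene of the rule, and without it the sums were 6235 CPM in T16 and 2770 in T101. In mural-led members Higd1b, a gene of the rule, was 4008 CPM in P3, from 32 UMIs (next T16 1615).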

How the results depend on the processing

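No gene was called in the comparison of PDOXs with Nu-NB under any of 24 alternatives (DESeq2, other scalings and filters, joined symbols, stricter cell rules, each PDOX left out, T192 and T233 summed, mural-led or capped members), while genes at an unadjusted p under 0.05 ranged from 63 of 560 tested (without members holding 2 markers of another class) to 781 of 12395 (no filter). With each PDOX left out they ranged from 411 to 750, against 718. The smallest adjusted p was 0.0126 (no filter, 1 gene at or under 0.05) to 0.567 (upper quartile scaling). DESeq2 had 2 genes at or under 0.05. The 20 genes with the smallest p were chosen with all 7 PDOXs on 1 side of Nu-NB, which fixes their direction in most refits, so that its being the same in all 238 of them is no sign of stability. The fit with at least 500 genes per barcode was not run, since it left 4 members in Nu-NB. Symbols joined through synonyms gave 12957 genes from 601 pairs. No paired analysis was possible because the groups share no replicate numbers that mark common animals.

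Of 74 other values, 60 lay within the spread between PDOXs, the counting interval of the reported value or, for counts, 1.5 times it, and 14 lay outside, and the cause was not tested. These limits are wide: the PDOX median of the member share, reported as 3.67%, was 1.59% with at least 4 markers and no exclusion marker, and the cycling share of P3TMZ minus that of P3, reported as -8.31 percentage points, ran from -26.4 to -0.62. With at least 4 markers and no exclusion marker, the member share in Nu-NB was 0.268% (reported 0.749%), the PDOX median of contractile members 9.52% (reported 25.8%) and the contractile share in Nu-NB 0.0%. Counting members with 1 of 3 contractile genes gave a PDOX median of 40.9%. At 500 genes per barcode the member share of P3TMZ minus that of P3 turned from 1.73 to -2.60 percentage points (-6.64 to 1.11), and with at least 4 markers and no exclusion marker to -0.27. It was 2.32 (0.166 to 4.55) without the top 5% of UMIs and 2.36 (0.670 to 4.16) in mural-led members. The PDOX median of cycling members, reported as 6.98%, was 18.75% with at least 1 cycle gene, 18.0% thinned to 1000 UMIs and 19.8% without thinning. Genes on 1 side in every sample for contractile against other members numbered 326 over all members and 811 in mural-led members, and with 1 sample left out 449 to 644, with 494 without T233, 591 without P13 and 644 without T16, since fewer samples then need to share a direction. Genes with a ratio interval that left out 1 between P3TMZ and P3 numbered 231 over all members, 114 in mural-led members and 106 with members capped at 500 UMIs.

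Nu-NB had the fewest member UMIs of the 9 samples. With 8075 UMIs in 14 members, a gene with no UMI there could have had up to 385 CPM, and levels there that rest on 1 or 2 UMIs have a wide counting error.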
